A study of Homo sapiens with 30 samples.

Results

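The MHC class I presentation genes examined here are HLA-B, HLA-C, HLA-E, HLA-F, B2M, TAP1, TAP2, TAPBP and NLRC5, taken by symbol from the tables deposited for OPM2 and Delta47, a pair of human myeloma lines. All 9 were listed in the OPM2 table of 16407 genes and all 9 in the Delta47 table of 17286 genes. After removal of genes that reached a value of 1 in fewer than 3 libraries, 9 of 9 were among 10309 genes tested in OPM2 and 8 of 9 among 11001 genes tested in Delta47, where HLA-F did not pass. The study removed FOXM1, a forkhead transcription factor of dividing cells, with Cas9 protein and guides against exon 2, and picked single clones, so every knockout group below is 1 clone. In OPM2 the groups were knockout clone 1 carrying a lentiviral FOXM1c vector (KO1R), the same clone carrying the empty vector (KO1EV), knockout clone 2 (KO2), knockout clone 1 with no vector (KO1) and the unedited line (WT). In Delta47 they were knockout clone 2 with the FOXM1c vector (KO2R), clone 2 without it (KO2), clone 1 (KO1) and WT. The cells given FOXM1c were sorted for green fluorescent protein. The Delta47 columns read as KO2R do not carry a clone number, and the Delta47 empty vector group was not analysed here, so in Delta47 the effects of FOXM1c, of the vector and of the sort cannot be told apart. All cells grew in the same serum-containing medium, and each group had 3 libraries of poly-A RNA.

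MHC class I molecules show short peptides from inside the cell to CD8 T cells and natural killer cells. A polymorphic heavy chain (HLA-B, HLA-C) or a less variable one (HLA-E, HLA-F) pairs with the light chain beta-2 microglobulin, encoded by B2M. The proteasome cuts the peptides, the TAP1-TAP2 transporter carries them into the endoplasmic reticulum, and tapasin, encoded by TAPBP, holds the empty molecule at the transporter while it is loaded. NLRC5 is the transactivator of these promoters, where it works with the RFX, NF-Y and CREB factors bound to the SXY module. Interferon regulatory factors and NF-kB act on sites beside that module. Myeloma cells are malignant plasma cells, and loss of class I presentation is one of the ways in which tumour cells escape T cells.

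RefSeq promoters (build GRCh38.p14, the 250 bases before the annotated start) were found for 7 of the 9 genes. Those of 4 genes on which the Delta47 results turn are shown: HLA-B and HLA-C, which moved together, and B2M and TAP1, which moved apart from them. They are reference sequences and not the alleles of these lines. Each is printed 5′ to 3′ in the direction of transcription and ends at the base before the start. Capitals mark matches, on either strand, to the X2 box core TGACGC, the CCAAT or Y box ATTGG, the interferon response core (GAAA and GAAA with 2 bases between them), the kappa B pattern (GGGA and CC with 4 bases between them), the forkhead core TAAACA and the cell cycle homology region TTTGAA.

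HLA-B, chr6:31357180-31357429, minus strand: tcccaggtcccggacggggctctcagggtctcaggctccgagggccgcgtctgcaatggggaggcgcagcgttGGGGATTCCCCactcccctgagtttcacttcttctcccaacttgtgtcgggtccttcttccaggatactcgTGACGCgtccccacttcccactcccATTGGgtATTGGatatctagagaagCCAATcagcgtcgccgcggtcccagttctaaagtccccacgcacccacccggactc

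HLA-C, chr6:31272093-31272342, minus strand: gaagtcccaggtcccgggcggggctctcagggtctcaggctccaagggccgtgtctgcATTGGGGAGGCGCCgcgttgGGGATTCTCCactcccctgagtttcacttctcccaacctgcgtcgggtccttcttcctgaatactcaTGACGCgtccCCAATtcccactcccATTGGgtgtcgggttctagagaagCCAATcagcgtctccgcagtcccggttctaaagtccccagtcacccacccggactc

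B2M, chr15:44711267-44711516, plus strand: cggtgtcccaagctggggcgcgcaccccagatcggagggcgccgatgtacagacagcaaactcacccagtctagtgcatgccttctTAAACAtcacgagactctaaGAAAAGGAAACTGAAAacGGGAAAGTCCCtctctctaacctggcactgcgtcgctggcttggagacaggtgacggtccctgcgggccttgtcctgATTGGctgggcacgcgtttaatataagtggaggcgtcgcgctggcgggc

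TAP1, chr6:32853705-32853954, minus strand: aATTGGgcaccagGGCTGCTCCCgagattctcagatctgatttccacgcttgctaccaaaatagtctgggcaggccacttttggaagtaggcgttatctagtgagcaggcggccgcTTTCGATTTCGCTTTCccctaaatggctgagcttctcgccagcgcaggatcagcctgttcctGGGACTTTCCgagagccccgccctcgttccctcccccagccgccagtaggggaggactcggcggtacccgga

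The HLA-B and HLA-C windows were 89% identical over 254 aligned positions, whereas HLA-B and B2M were 49.5% identical. The window of HLA-F, which was not tested in Delta47, was 80.4% identical to that of HLA-B and 78.7% to that of HLA-C. HLA-B and HLA-C each held the X2 core (106 to 101 bases before the start in HLA-B and 105 to 100 bases before it in HLA-C), CCAAT boxes and kappa B matches. Neither matched the interferon response core as spelled above. Both hold the similar letters tttcacttc, which that strict pattern does not match, so absence of such a site is not shown. B2M held 2 interferon response cores, which overlap each other, CCAAT and kappa B matches, and the only forkhead core among the 7 genes. TAP1 held 2 overlapping interferon response cores and 2 kappa B matches. The X2 core was also in the window of TAP2, which is not printed and did not move with HLA-B and HLA-C in Delta47. The cell cycle homology region was in none of the members' windows. Among 35097 RefSeq promoter windows, 7.66% held the X2 core, 32% the CCAAT box, 3.02% the interferon response core, 22.6% the kappa B pattern, 11% the forkhead core and 13.3% the cell cycle homology region. These matches describe letters only, and the X2 and kappa B matches shared by HLA-B and HLA-C go with the general likeness of their windows.

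The OPM2 values are FPKM, fragments scaled to transcript length and to the size of the library, per the header of that table, and the Delta47 table names no unit. Its numbers are called here the authors' expression value. Neither table gives counts, and sequencing depth is therefore unknown. The value of 1 read, as far as sparse genes show it, differed between libraries by −0.05 to 0.07 (log2, 17 genes) in OPM2 and by −0.10 to 0.08 (log2, 19 genes) in Delta47. Only sparse genes whose non-zero values lay within a factor of 1.4 of each other were used. A small spread was thus partly set in advance, and it does not show that depth was alike. FOXM1 RNA was lower in every untransduced clone than in WT but was still present, as an edit within an exon need not remove the transcript. In OPM2 it averaged 277.5 ± 14.4 FPKM in KO1R, 106.7 ± 1.85 in KO1EV, 62.13 ± 6.69 in KO2, 92.06 ± 1.08 in KO1 and 175.9 ± 0.804 in WT (SD, n = 3 each). In Delta47 its value averaged 99.37 ± 4.37 in KO2R, 46.19 ± 0.883 in KO2, 47.95 ± 1.85 in KO1 and 88.92 ± 1.88 in WT (SD, n = 3 each). Of 9 plasma cell markers, 8 reached a value of 1 in both lines, FCRL5 being the exception. In OPM2 the summed B cell, T cell, myeloid, dendritic, epithelial and stromal or endothelial marker lists each stayed at or below 1.68 FPKM in every library. In Delta47 the epithelial list (EPCAM, KRT8 and KRT18 reaching 1, CDH1 below it) summed to 12.01 to 12.87 in KO2R, 9.59 to 11.2 in KO2, 7.94 to 8.55 in KO1 and 5.49 to 6.47 in WT. The stromal or endothelial list, of which PECAM1 alone reached 1, summed to 13.59 to 15.2 in KO2R, 14.38 to 16.21 in KO2, 3.19 to 3.53 in KO1 and 1.62 to 1.73 in WT. Both move with the Delta47 groups, and their part in the results below was not tested. In bulk RNA, fewer cells with a transcript and less of it per cell cannot be told apart. In OPM2, replicate 3 of KO2 and replicate 3 of KO1EV stood apart from the other libraries of their groups, and OPM2 counts are given with and without them. Leaving them out added calls in other genes too. Of 47 other class I pathway genes described below, 4 were higher and 13 lower in KO2 against KO1 with them. Without them 13 were higher and 25 lower. The share of all genes called without them is not given, so those counts say little about the genes counted. HLA genes are polymorphic and much alike, so reads can be shared between them or lost where a line's allele differs from the reference, and their values are uncertain to that extent.

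OPM2 cells made abundant class I light chain and heavy chains, and little of the transactivator. Per length, B2M was the highest of the 9, with group means between 1485 and 2183 FPKM. HLA-C and HLA-B came next, with group means of 323.2 to 421.2 FPKM and 301.1 to 359.8 FPKM. Those of HLA-E lay between 91.28 and 133.3 FPKM. The peptide transporter and tapasin were lower, TAP1 at 26.3 to 33.46, TAPBP at 19.81 to 25.73 and TAP2 at 15.52 to 24.71 FPKM. HLA-F at 6.98 to 10.47 FPKM and NLRC5 at 3.807 to 5.267 FPKM were the lowest. The ranges of HLA-B and HLA-C overlapped, as did those of TAP2 and TAPBP, so neither pair has a clear order.

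**Figure D1:**
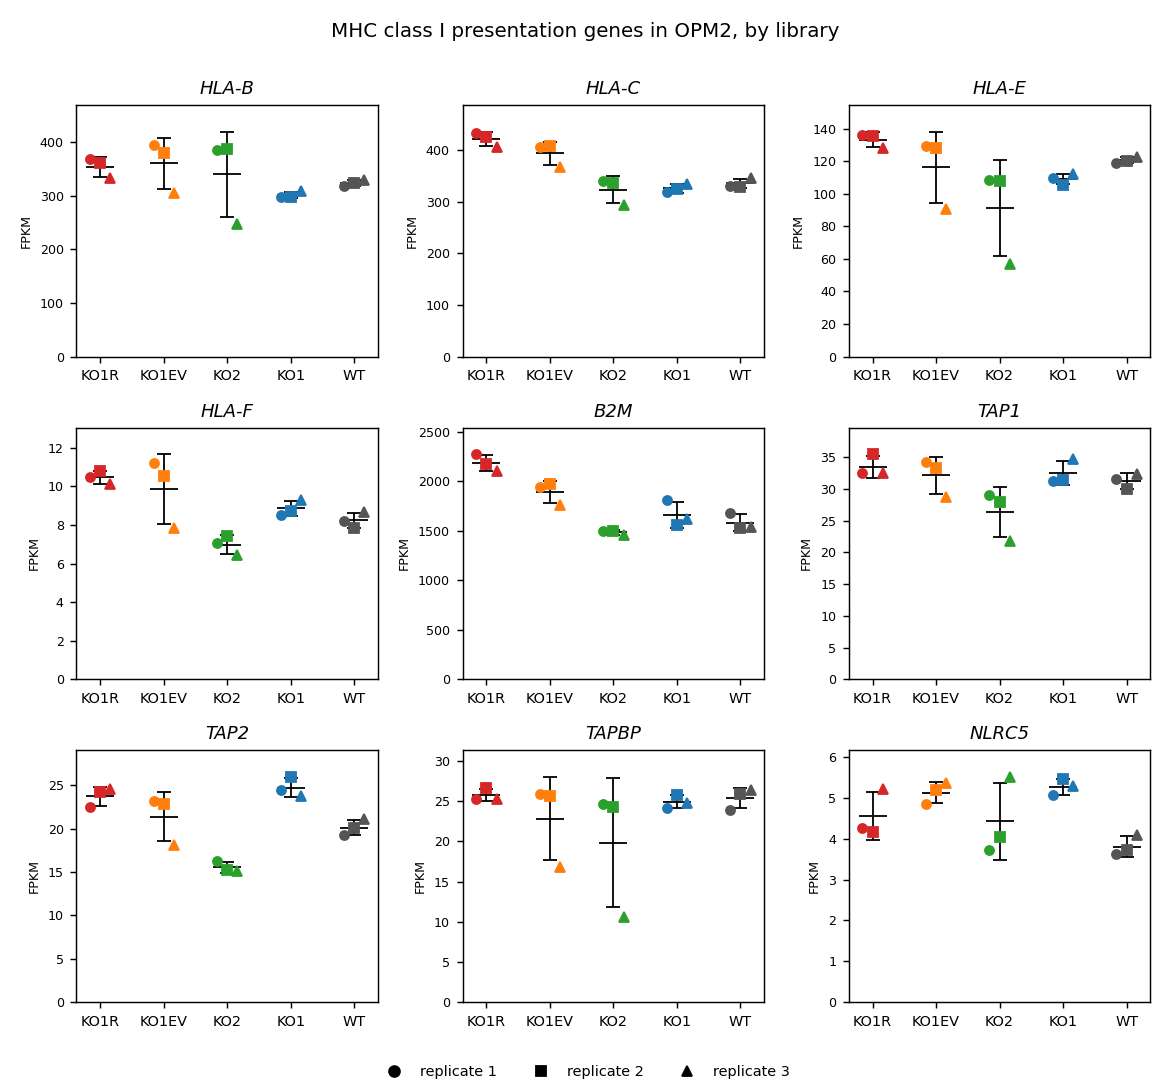
FPKM of the 9 genes in the 15 OPM2 libraries, one panel a gene, with a vertical axis that starts at 0. Points are libraries, with one marker shape for each replicate number, and the horizontal bars are the group mean with its SD (n = 3). B2M and HLA-C were highest in KO1R, TAP2 was lowest in KO2, and replicate 3 of KO2 lay far below the other KO2 libraries for HLA-B, HLA-E and TAPBP.

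In the OPM2 knockout clones against WT, class I genes were called about as often as all genes, so the counts say little about the members. In the comparison of KO1 with WT, 2 of the 9 genes were called and both rose, TAP2 and NLRC5, where 21.2% of all genes tested were called, 14.5% higher and 6.72% lower (limma, adjusted p below 0.05). In the comparison of KO2 with WT, 1 of 9 was called, TAP2, which fell, where 14.4% of all genes were called, 6.54% higher and 7.82% lower. TAP2, one half-transporter of the TAP pair, stood at 24.49, 25.91 and 23.74 FPKM in KO1, against 19.28, 20.04 and 21.06 FPKM in WT. It stood at 16.21, 15.23 and 15.12 FPKM in KO2. The KO1 libraries were all above the WT libraries and the KO2 libraries were all below them. The log2 fold change of TAP2 was 0.28 ± 0.08 in KO1 (SE, adjusted p = 0.0302, limma) and −0.35 ± 0.08 in KO2 (SE, adjusted p = 0.0121, limma). In KO1 the TAP2 call was lost when the trend with transcript length was removed, at 0.22 (adjusted p = 0.105, limma), under quantile scaling, at 0.24 (adjusted p = 0.0838, limma), and when any KO1 library or WT replicate 1 or 2 was left out, at 0.25 to 0.31 (adjusted p between 0.0552 and 0.112, limma). In KO2 it was lost without WT replicate 3, at −0.32 (adjusted p = 0.0545, limma), and in a fit of the 2 groups alone, at −0.36 (adjusted p = 0.0693, limma). NLRC5 stood at 5.07, 5.45 and 5.28 FPKM in KO1, against 3.62, 3.71 and 4.09 FPKM in WT, without overlap. Its log2 fold change in KO1 was 0.38 ± 0.11 (SE, adjusted p = 0.0233, limma). Without KO1 replicate 2 or 3, or WT replicate 1 or 2, it was 0.36 to 0.38 and not called (adjusted p between 0.0655 and 0.0803, limma). In KO2 the NLRC5 libraries were at 3.73, 4.03 and 5.50 FPKM, overlapping WT, and the log2 difference of 0.16 was not called.

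The heavy and light chains were not called in either OPM2 clone against WT. B2M stood at 1499.97, 1500.91 and 1455.06 FPKM in KO2 and at 1808.76, 1556.96 and 1622.28 FPKM in KO1, against 1676.19, 1524.86 and 1534.92 FPKM in WT. HLA-C stood at 340.17, 336.66 and 292.63 FPKM in KO2 and at 317.75, 324.57 and 333.76 FPKM in KO1, against 330.74, 328.83 and 345.39 FPKM in WT. For HLA-C both clones overlapped WT, and for B2M KO1 did while KO2 lay just below. HLA-B stood at 297.84, 296.93 and 308.47 FPKM in KO1 and at 384.76, 385.79 and 247.06 FPKM in KO2, against 317.19, 323.26 and 328.64 FPKM in WT. In KO2, 2 libraries were above every WT library and the third was below them all. HLA-E, a ligand of the NKG2A receptor of natural killer cells, was at 108.75, 108.11 and 56.98 FPKM in KO2, against 119.06, 120.19 and 122.75 FPKM in WT. All 3 KO2 values were below WT, but 1 of them by much more than the others. TAPBP in KO2 was likewise at 24.59, 24.28 and 10.57 FPKM, against 23.92, 25.88 and 26.35 FPKM in WT. Without the pair of libraries that stand apart, 4 of the 9 genes were called in KO2 against WT, HLA-B at 0.25 (adjusted p = 0.000229), HLA-E at −0.15 (adjusted p = 0.00638), HLA-F at −0.16 (adjusted p = 0.0379) and TAP2 at −0.34 (adjusted p = 0.000177, all limma). In KO1 against WT the same removal, which changes only the estimate of the spread there, gave 4 calls, with HLA-B at −0.10 and HLA-E at −0.14 added to TAP2 and NLRC5. Calls rose in other genes too in that fit, so both counts say little about the members.

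The 2 OPM2 clones differed from each other in 3 of the 9 genes, all lower in KO2, where 29.9% of all genes were called, 10.8% higher and 19.1% lower. TAP2 was lower in KO2 than in KO1 by a log2 difference of −0.64 ± 0.08 (SE, adjusted p = 8.96e-05, limma). TAP1 was lower by −0.30 ± 0.10 and HLA-F by −0.31 ± 0.10 (SE, adjusted p = 0.0361 and 0.0352, limma). TAP1, the other half-transporter, was at 29.09, 28.01 and 21.81 FPKM in KO2 and at 31.31, 31.43 and 34.67 FPKM in KO1. HLA-F was at 7.06, 7.42 and 6.46 FPKM in KO2 and at 8.53, 8.74 and 9.31 FPKM in KO1. Neither gene overlapped between the clones. Both calls were lost when the length trend was removed, in a fit of the 2 groups alone, and when any KO1 library was left out. Under quantile scaling they were lost too, with TAP1 at −0.29 (adjusted p = 0.0665) and HLA-F at −0.22 (adjusted p = 0.15, limma), and HLA-F also with no filter on low values (adjusted p = 0.0513, limma). TAP1 was also lost without KO2 replicate 3 and HLA-F without KO2 replicate 1. Over these left-out libraries TAP1 was at −0.33 to −0.18 (adjusted p between 0.0514 and 0.127) and HLA-F at −0.33 to −0.27 (adjusted p between 0.0591 and 0.112, limma). Without the libraries that stand apart, 6 genes were called, 5 lower and HLA-B higher in KO2, at 0.36 (adjusted p = 3.32e-06, limma). Among the 47 other class I pathway genes, 13 were then higher and 25 lower, where 4 and 13 were with all libraries.

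FOXM1c added to OPM2 KO1 left all 9 genes uncalled against the empty vector, where 8.23% of all genes were called, 3.1% higher and 5.12% lower. At an unadjusted p below 0.05 the count was 1 of 9. That gene was B2M, at 2268.75, 2172.49 and 2107.13 FPKM in KO1R, against 1942.87, 1968.14 and 1757.51 FPKM in KO1EV. These libraries did not overlap, and the log2 difference was 0.21 ± 0.07 (SE, adjusted p = 0.0808, limma). With replicate number added to the model, 1 of the 9 genes was called in this comparison, and it was higher. The empty vector group itself differed from untransduced KO1 in HLA-C, which rose by 0.27 ± 0.07 (SE, adjusted p = 0.0333, limma), 1 of 9 genes where 4.95% of all genes were called, 1.78% higher and 3.17% lower. HLA-C, a ligand of killer-cell immunoglobulin-like receptors, was at 405.33, 407.09 and 367.68 FPKM in KO1EV, against 317.75, 324.57 and 333.76 FPKM in KO1. Every KO1EV library was above every KO1 library. Without the libraries that stand apart, 5 genes were called in KO1EV against KO1, all higher, namely HLA-B, HLA-C, HLA-E, HLA-F and B2M. Among the 47 other class I pathway genes, 6 were then higher and 11 lower in that comparison, where 1 and 3 were with all libraries. KO1R against KO1EV then had 1 call, HLA-B at −0.13 (adjusted p = 0.0363, limma).

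Against WT, the OPM2 cells with FOXM1c had more light chain and HLA-C. In KO1R, 2 of 9 genes were called and both rose, where 14.7% of all genes were called, 6.38% higher and 8.29% lower. B2M was higher by 0.47 ± 0.07 (SE, adjusted p = 0.000454, limma), with WT libraries at 1676.19, 1524.86 and 1534.92 FPKM, below all 3 KO1R libraries. HLA-C was at 433.17, 424.88 and 405.69 FPKM in KO1R, against 330.74, 328.83 and 345.39 FPKM in WT, a log2 difference of 0.33 ± 0.07 (SE, adjusted p = 0.00499, limma). Set against untransduced KO1, a comparison chosen after the data were seen, the same 2 genes were called, B2M at 0.39 (adjusted p = 0.00133) and HLA-C at 0.37 (adjusted p = 0.0018, limma), where 21.7% of all genes were called, 6.26% higher and 15.4% lower. Without the libraries that stand apart, 7 of 9 genes were called in KO1R against WT, all higher, TAP1 and TAPBP being the exceptions. Of the 47 other pathway genes, 13 were then higher and 12 lower, where 6 and 2 were with all libraries. The share of all genes called in that fit is not given, so the count of 7 says little about the members. Transcript length (GENCODE release 29) went with the log2 difference across genes in KO1R against WT (Spearman rho −0.257) and in KO1EV against KO1 (rho −0.308), with short genes higher, and B2M and HLA-C have principal transcripts of 1705 and 1536 bases. With that trend removed, HLA-C in KO1EV against KO1 was at 0.23 and no longer called (adjusted p = 0.133, limma). It was not called either without any 1 KO1 library or without KO1EV replicate 1 or 2, at 0.25 to 0.29 (adjusted p between 0.0783 and 0.142, limma), or with column totals made equal, at 0.21 (adjusted p = 0.0651, limma).

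In Delta47 the class I genes split into groups that did not move together. HLA-B and HLA-C were higher in both knockout clones, TAP1 was lower in both, and B2M and HLA-E were higher in KO1 and lower in KO2. In KO1 against WT, 5 of the 8 genes tested were called, 4 higher and 1 lower, where 52.6% of all genes were called, 28.9% higher and 23.7% lower. In KO2 against WT it was 6 of 8, 2 higher and 4 lower, where 43.6% of all genes were called, 28.4% higher and 15.2% lower. With so large a share of the table called, these counts say little about the members, and the sizes below are the description.

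**Figure D2:**
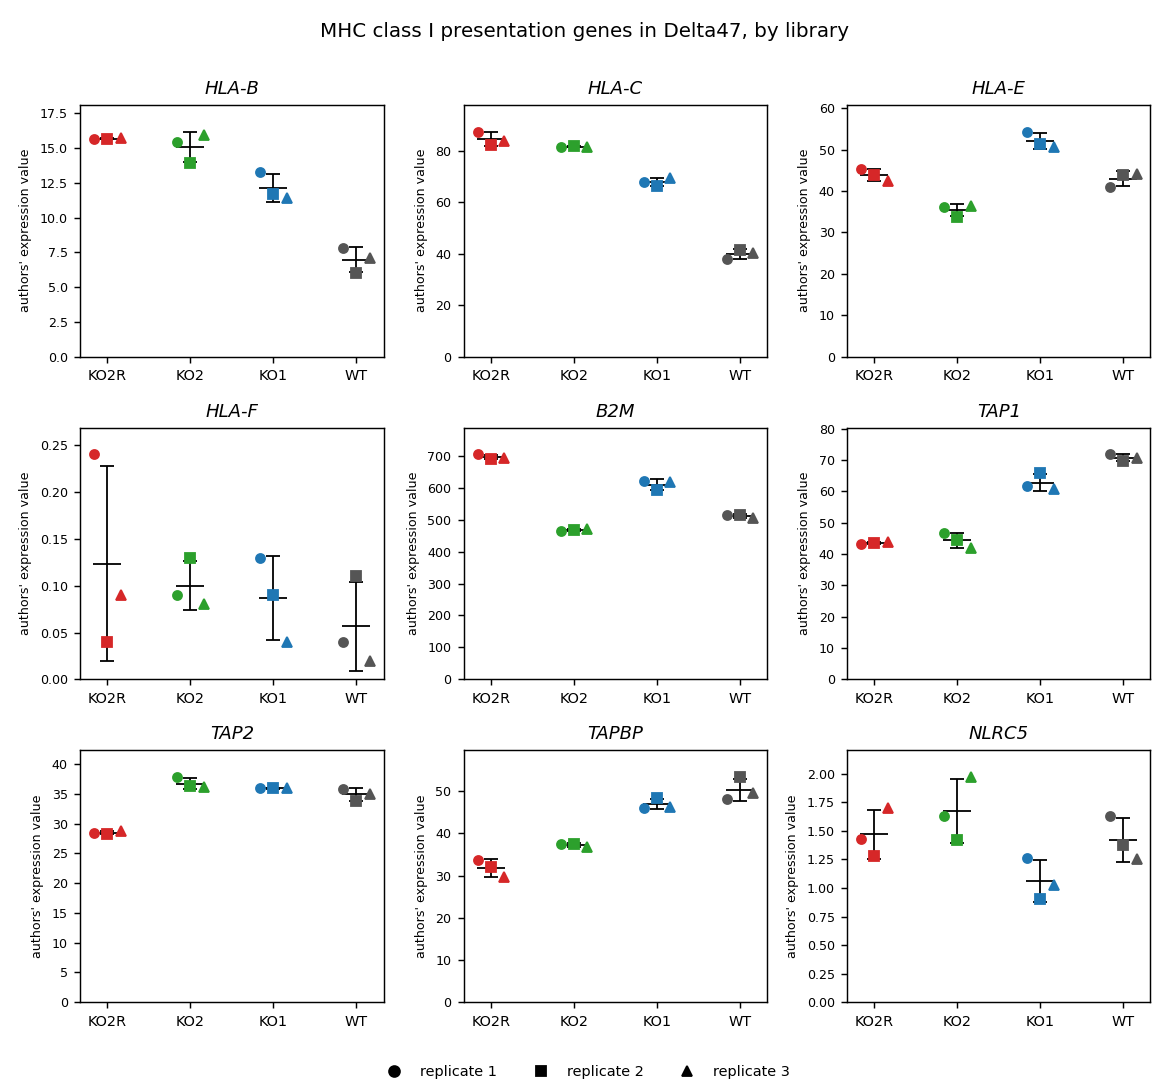
The authors' expression value of the 9 genes in the 12 Delta47 libraries, one panel a gene, with a vertical axis that starts at 0. Points are libraries, with one marker shape for each replicate number, and the horizontal bars are the group mean with its SD (n = 3). HLA-B and HLA-C were lowest in WT, TAP1 and TAPBP were lowest in KO2R and KO2, B2M was highest in KO2R, and HLA-F was at 0.24 or less everywhere.

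HLA-C and HLA-B, which present peptides to CD8 T cells, roughly doubled in KO2. HLA-C was at 81.57, 81.87 and 81.74 in KO2 and at 67.90, 66.53 and 69.62 in KO1, against 37.92, 41.63 and 40.33 in WT. The groups were fully separate. The log2 fold change was 1.01 ± 0.04 in KO2 (SE, adjusted p = 3.34e-12, limma), a factor of 2.02 on the scale of the value plus 1, and 0.75 ± 0.04 in KO1 (SE, adjusted p = 1.93e-10, limma), a factor of 1.69. HLA-B, at a lower level, was at 15.46, 13.90 and 15.96 in KO2 and at 13.26, 11.66 and 11.44 in KO1, against 7.78, 6.01 and 7.10 in WT. Here too no knockout library reached down to WT. Its log2 fold change was 1.02 ± 0.08 in KO2 (SE, adjusted p = 1.48e-08, limma) and 0.72 ± 0.08 in KO1 (SE, adjusted p = 8.37e-07, limma). KO2 was also above KO1, by 0.26 for HLA-C (adjusted p = 6.12e-05) and by 0.30 for HLA-B (adjusted p = 0.00524, limma). The sequences of these promoters, printed above, were the most alike of the pairs compared. Shared reads between the 2 genes could not be separated here.

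HLA-B and HLA-C stayed above WT in KO2R. In KO2R, HLA-C was at 87.56, 82.44 and 83.93 and HLA-B at 15.67, 15.65 and 15.72. Neither gene was called against KO2, both differences lying within 0.1 on the log2 scale. When columns were scaled to the same total, which moves the median of all genes in this comparison by −0.17 (log2), HLA-C fell by 0.15 (adjusted p = 0.00185, limma). Against WT, HLA-C was higher in KO2R by 1.06 (adjusted p = 1.48e-12) and HLA-B by 1.07 (adjusted p = 3.5e-09, limma). The KO2R and WT libraries did not overlap for either gene.

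B2M and HLA-E took opposite directions in the clones. B2M was at 465.89, 467.33 and 469.15 in KO2 and at 620.65, 591.27 and 617.12 in KO1, against 515.01, 513.10 and 505.89 in WT. All KO2 libraries were below WT and all KO1 libraries above it. The log2 fold change of B2M was −0.13 ± 0.03 in KO2 (SE, adjusted p = 0.00183, limma) and 0.25 ± 0.03 in KO1 (SE, adjusted p = 2.32e-06, limma). HLA-E was at 36.09, 33.67 and 36.27 in KO2 and at 54.36, 51.31 and 50.64 in KO1, against 40.94, 43.79 and 44.22 in WT. It too lay wholly below WT in KO2 and wholly above WT in KO1. Its log2 fold change was −0.28 ± 0.04 in KO2 (SE, adjusted p = 9.72e-05, limma) and 0.27 ± 0.04 in KO1 (SE, adjusted p = 8.65e-05, limma). Between the clones the differences were −0.38 for B2M (adjusted p = 5.75e-08) and −0.55 for HLA-E (adjusted p = 1.2e-07, limma), lower in KO2 in both cases.

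Both genes were higher in the cells with FOXM1c than in KO2. B2M was at 703.81, 689.70 and 693.22 in KO2R, above every other Delta47 library, and its log2 difference from KO2 was 0.57 ± 0.03 (SE, adjusted p = 4.03e-10, limma). Against WT it was 0.44 (adjusted p = 1.41e-09, limma). HLA-E was at 45.24, 43.90 and 42.47 in KO2R, higher than in KO2 by 0.30 ± 0.04 (SE, adjusted p = 1.82e-05, limma). The KO2R libraries of HLA-E overlapped those of WT, and that difference of 0.03 was not called. In KO2R against KO2, 4 of 8 genes were called, 2 higher and 2 lower, where 62% of all genes were called, 25.2% higher and 36.8% lower. With column totals made equal it was 7 of 8, 2 higher and 5 lower. That scaling moves the median of all genes by −0.17 (log2) in this comparison. The share of all genes called under it is not given, so the count of 7 says little about the members.

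Length went with these differences across the whole Delta47 table. In KO2R against KO2, the median log2 difference was 0.18 for genes with a transcript under 2000 bases and −0.24 for genes from 5000 bases, with a Spearman rho of −0.507 across genes, which are not independent replicates. In KO1 against WT the rho was −0.383, and in KO2 against WT it was −0.0626. With the trend removed, B2M in KO2R against KO2 was at 0.48 (adjusted p = 2.9e-09) and HLA-E at 0.34, TAP2 at −0.34 and TAPBP at −0.28, all still called (limma). In the same fit HLA-C and HLA-B were at −0.08 and −0.07, not called.

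**Figure D3:**
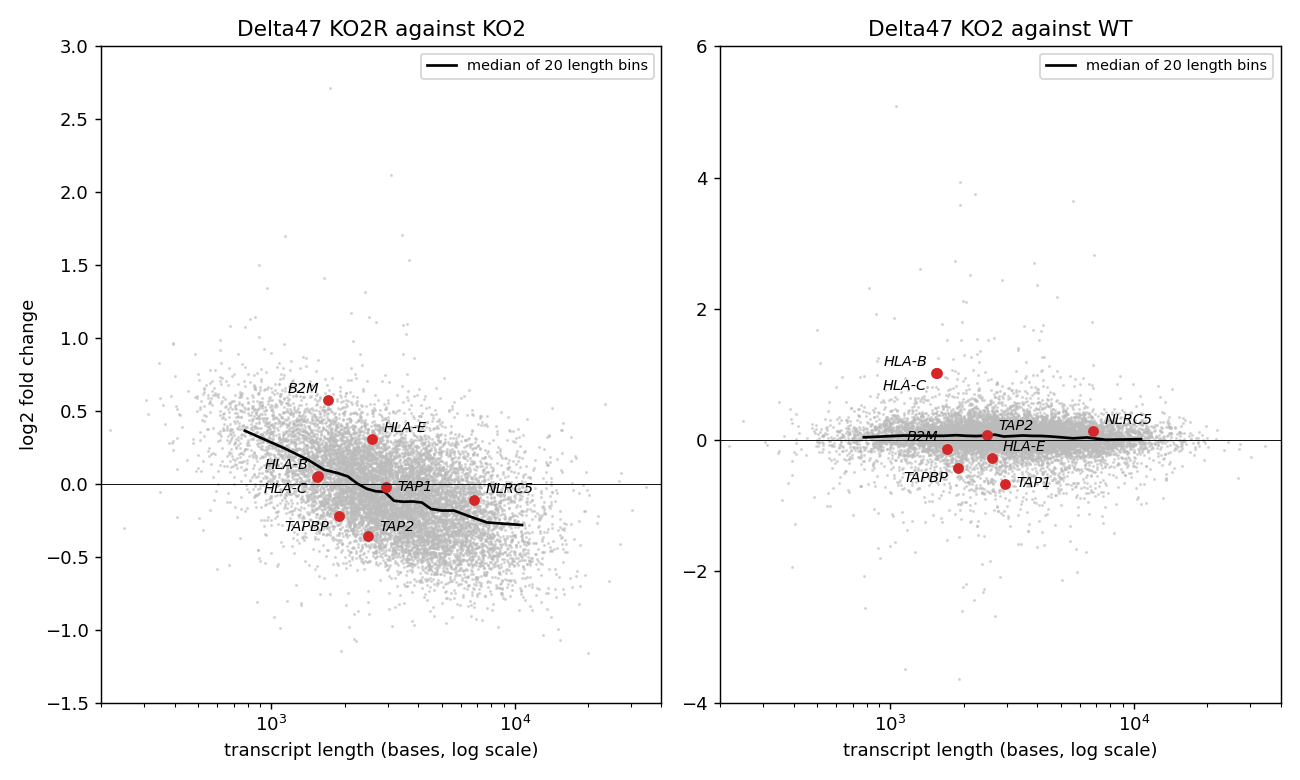
Log2 difference of each gene tested in Delta47 against the length of its principal transcript on a log axis, for KO2R against KO2 at left and KO2 against WT at right, with different vertical ranges. Grey points are genes, red points the 8 class I genes tested, and the black line is the median in 20 bins of length. The line falls with length at left (rho −0.507) and is nearly flat at right (rho −0.0626), where HLA-B and HLA-C stand at 1.02 and 1.01.

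TAP1 fell in both Delta47 knockout clones and TAPBP, which encodes tapasin, in KO2, whereas TAP2 was called in neither. TAP1 was at 46.67, 44.47 and 41.97 in KO2 and at 61.58, 65.87 and 60.87 in KO1, against 71.74, 69.73 and 70.72 in WT. All 6 knockout libraries were below WT. The log2 fold change of TAP1 was −0.66 ± 0.04 in KO2 (SE, adjusted p = 1.78e-09, limma) and −0.17 ± 0.04 in KO1 (SE, adjusted p = 0.00268, limma). TAPBP was at 37.58, 37.37 and 36.82 in KO2 and at 46.11, 48.37 and 46.35 in KO1, against 48.21, 53.29 and 49.52 in WT. It fell in KO2 by 0.42 ± 0.05 on the log2 scale (SE, adjusted p = 2.43e-06, limma), whereas the KO1 difference of −0.10 was not called (adjusted p = 0.0981, limma) and overlapped WT. With the length trend removed, TAPBP in KO1 was at −0.20 and was called (adjusted p = 0.00209, limma). TAP2 was at 37.81, 36.38 and 36.10 in KO2 and at 35.95, 35.93 and 35.99 in KO1, against 35.87, 33.85 and 35.04 in WT. All 6 knockout libraries were above WT, some of them by very little. TAP1 and TAPBP were lower in KO2 than in KO1, by a log2 difference of −0.49 (adjusted p = 2.03e-07) and of −0.33 (adjusted p = 6.19e-05, limma).

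TAP1 and TAPBP stayed below WT in KO2R. TAP1 was at 43.15, 43.64 and 43.86 in KO2R and was not called against KO2, with a difference within 0.1. TAPBP was at 33.75, 32.13 and 29.58 in KO2R, lower than in KO2 by 0.22 ± 0.05 (SE, adjusted p = 0.000734, limma). TAP2 was at 28.48, 28.21 and 28.72 in KO2R, below every other Delta47 library, and its difference from KO2 was −0.36 ± 0.04 (SE, adjusted p = 3.89e-07, limma). Against WT, KO2R had 6 of 8 genes called, 3 higher and 3 lower, where 69% of all genes were called, 34.2% higher and 34.9% lower. The 3 lower genes were TAP1 at −0.69, TAPBP at −0.65 and TAP2 at −0.29, with adjusted p-values of 5.8e-10, 6.35e-09 and 3.2e-06 (limma).

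NLRC5 and HLA-F were low in Delta47. NLRC5 was at 1.63, 1.42 and 1.97 in KO2 and at 1.26, 0.90 and 1.03 in KO1, against 1.63, 1.38 and 1.25 in WT. Its values were close to the pseudocount of 1, so the log2 scale shrinks its differences. It was not called in either clone against WT, but KO2 was above KO1 by 0.37 (adjusted p = 0.00613, limma), a call lost when the length trend was removed (0.23, adjusted p = 0.0605, limma). In KO2R it was at 1.43, 1.28 and 1.70, overlapping KO2 and WT. HLA-F was listed between 0.02 and 0.24 in the 12 libraries and was not tested. Between the 2 Delta47 clones, 7 of the 8 genes tested were called, 3 higher and 4 lower in KO2, where 42.1% of all genes were called, 24.9% higher and 17.2% lower.

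**Figure D4:**
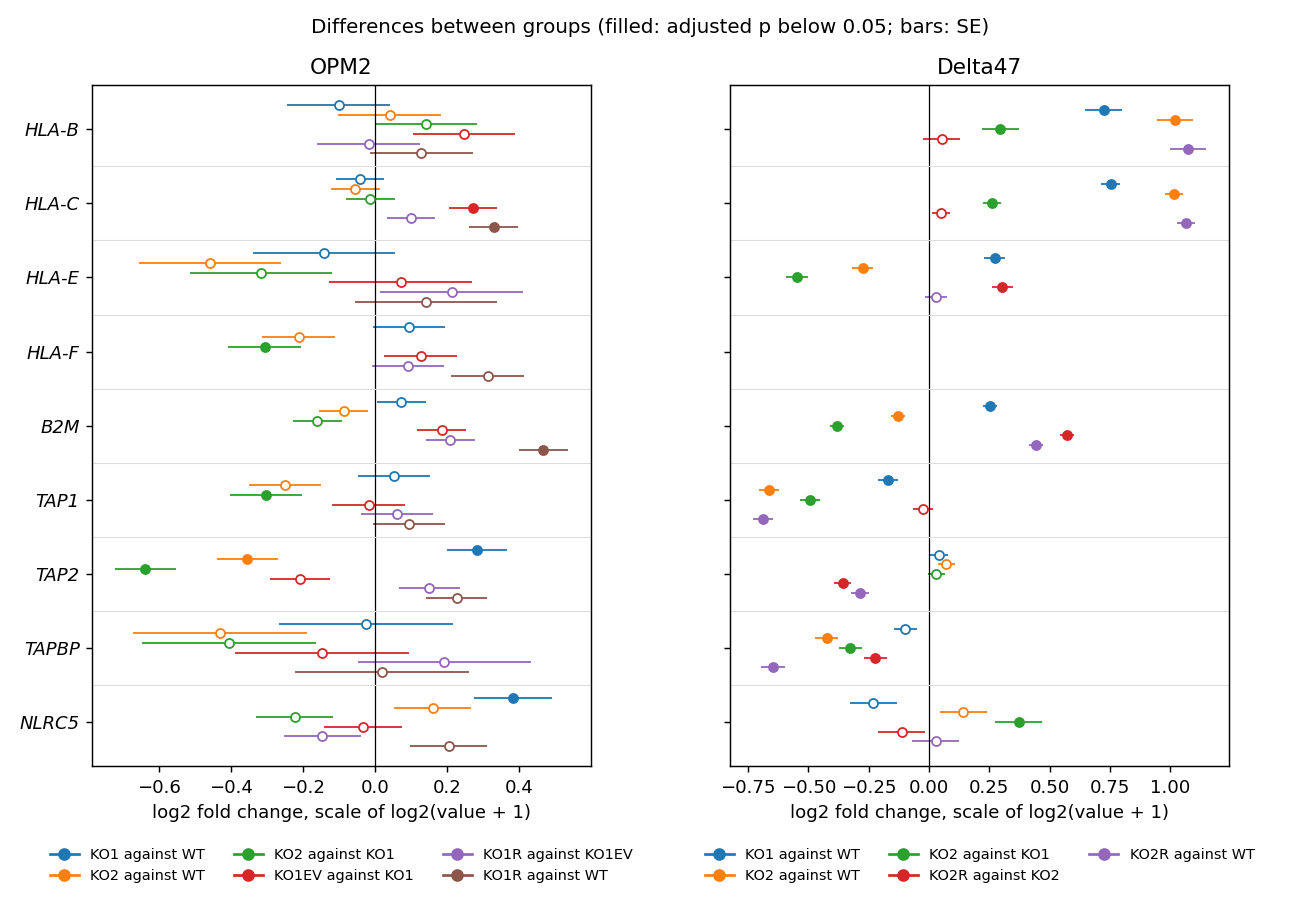
Log2 fold changes of the 9 genes on the scale of log2(value + 1), in OPM2 at left and Delta47 at right, with different horizontal ranges. Points are the limma estimates, bars their SE, colours the comparisons, and filled points those with an adjusted p below 0.05. In Delta47, HLA-B and HLA-C lie at 0.72 to 1.07 against WT while TAP1 lies at −0.17 to −0.69, and in OPM2 no estimate passes 0.64 in size.

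The rest of the class I pathway was read from lists of 54 other genes (proteasome, trimming, chaperones, promoter factors, interferon signalling, NF-kB, Polycomb and related ligands), of which 47 were tested in OPM2 and 43 in Delta47. In OPM2, 8 of 47 rose and 3 fell in KO1 against WT, where 14.5% of all genes were higher and 6.72% lower. The median log2 difference was 0.09 where the median of all genes was 0.07. In KO2 against WT, 0 rose and 6 fell, where 6.54% of all genes were higher and 7.82% lower. The median was 0.01 where that of all genes was 0.02. Without the libraries that stand apart the OPM2 counts were 20 higher and 14 lower in KO1, and 10 higher and 11 lower in KO2. The share of all genes is not given for that fit. In Delta47, 14 of 43 rose and 12 fell in KO1, where 28.9% of all genes were higher and 23.7% lower, and the medians were 0.05 for the list and 0.02 for all genes. In Delta47 KO2, 8 rose and 16 fell, where 28.4% of all genes were higher and 15.2% lower, with medians of −0.02 and 0.05. In KO2R against KO2, 13 rose and 14 fell, where 25.2% of all genes were higher and 36.8% lower, with medians of −0.04 and −0.05.

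Immunoproteasome subunits and proteasome activators were mostly higher in Delta47 KO1 than in WT and in KO2R than in KO2, and were split in KO2. PSMB8, PSMB9 and PSMB10 are the catalytic subunits that replace the standard ones after interferon, and PSME1 and PSME2 form the PA28 cap. Of 6 genes in the list, 5 rose and 1 fell in KO1 against WT, 1 rose and 2 fell in KO2 against WT, and 5 rose and 1 fell in KO2R against KO2. The shares of all genes called either way in these comparisons were 52.6%, 43.6% and 62%. The list's median log2 difference was 0.30 in KO1, 0.00 in KO2 and 0.46 in KO2R against KO2, where the medians of all genes were 0.02, 0.05 and −0.05. PSMB8 was at 67.96, 67.96 and 68.79 in KO2R, 41.21, 38.64 and 40.74 in KO2, 64.71, 62.90 and 60.83 in KO1, and 56.54, 53.33 and 52.94 in WT. The KO2 libraries were the lowest and the KO2R libraries the highest, with no overlap between groups. PSMB8 fell by 0.42 ± 0.04 in KO2 (SE, adjusted p = 1.76e-07, limma) and rose by 0.75 ± 0.04 in KO2R against KO2 (SE, adjusted p = 4.31e-10, limma). With the length trend removed, PSMB8 in KO2R against KO2 was at 0.52 (adjusted p = 1.69e-07, limma), while in KO1 against WT PSMB8 at 0.04 and PSMB9 at 0.01 were no longer called (adjusted p = 0.501 and 0.861, limma). PSME3, which forms a nuclear activator, was the gene that fell in KO1 against WT and in KO2R against KO2. In OPM2, PSMB8 rose in KO1 by 0.46 ± 0.11 (SE, adjusted p = 0.0114, limma), and PSME1 fell in KO2 by 0.32 ± 0.07 (SE, adjusted p = 0.00966, limma).

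**Figure D5:**
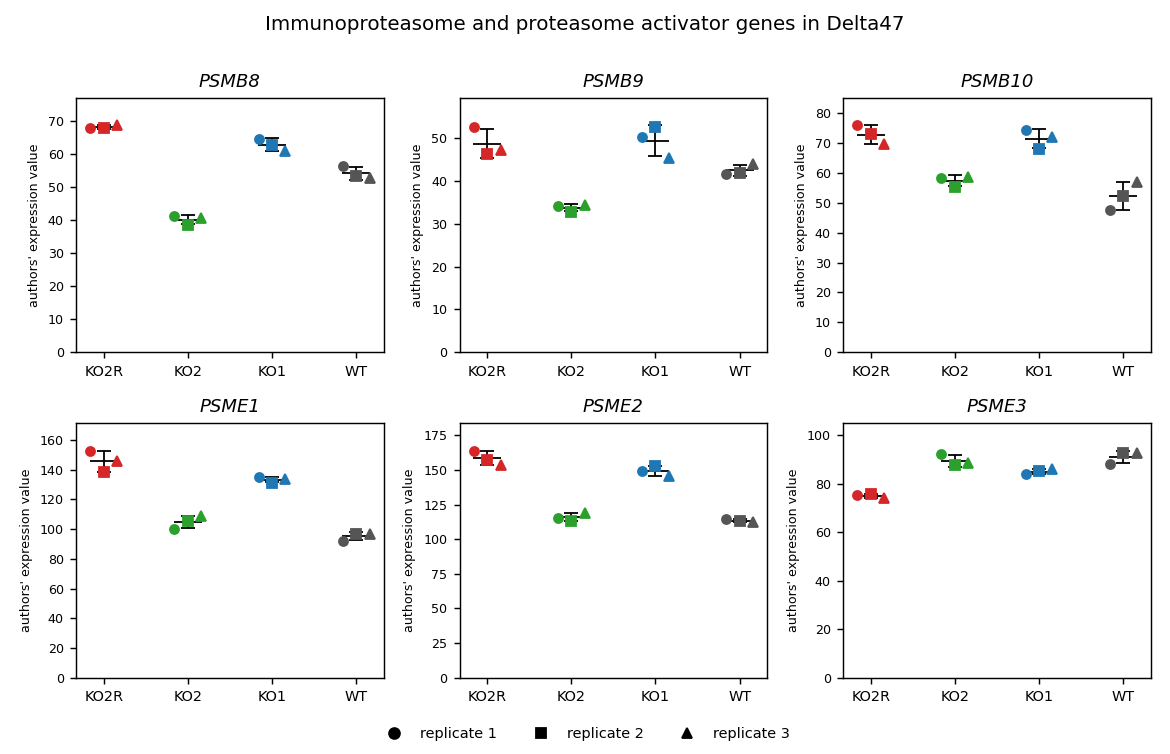
The authors' expression value of 6 immunoproteasome and proteasome activator genes in the 12 Delta47 libraries, with a vertical axis that starts at 0. Points are libraries, with one marker shape for each replicate number, and the horizontal bars are the group mean with its SD (n = 3). PSMB8 and PSMB9 were lowest in KO2, and PSME3 was lowest in KO2R.

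RFX5 and most NF-kB subunits fell in both Delta47 knockout clones, where HLA-B and HLA-C rose. RFX5, a subunit of the RFX complex, fell in Delta47 by 0.38 ± 0.04 in KO2 and by 0.16 ± 0.04 in KO1 (SE, adjusted p = 4.16e-07 and 0.00198, limma), and rose in OPM2 KO1 by 0.47 ± 0.08 (SE, adjusted p = 0.0011, limma). Of 7 tested RFX, NF-Y and CREB factors, 1 rose and 2 fell in Delta47 KO2, where 28.4% of all genes were higher and 15.2% lower. In Delta47 KO1, 1 rose and 3 fell, where 28.9% were higher and 23.7% lower. RFXANK, another RFX subunit, lay the other way. It was at 136.32, 136.00 and 137.09 in KO2 and at 142.26, 140.53 and 136.25 in KO1, against 114.42, 121.82 and 135.32 in WT. Of the 5 NF-kB subunits, 4 fell and 0 rose in each Delta47 clone against WT, where 15.2% of all genes were lower in KO2 and 23.7% in KO1. RELB, of the non-canonical pathway, fell by 1.44 ± 0.07 in KO2 and by 0.63 ± 0.07 in KO1 (SE, adjusted p = 8.02e-11 and 1.91e-06, limma). Of the 10 tested genes of interferon gamma signalling and the IRF family, 0 rose and 3 fell in Delta47 KO2, where 28.4% of all genes were higher and 15.2% lower. In Delta47 KO1, 4 rose and 2 fell, where 28.9% of all genes were higher and 23.7% lower. IRF9, an interferon regulatory factor, rose in KO1 by 0.58 ± 0.09 (SE, adjusted p = 6.44e-05, limma). In OPM2 KO1, 1 of the 10 tested genes of that list rose and 2 fell, where 14.5% of all genes were higher and 6.72% lower. The list's median log2 difference was −0.16 where that of all genes was 0.07. IRF1 rose by 0.41 ± 0.08 (SE, adjusted p = 0.00434, limma), whereas PTPN2, a phosphatase that damps the signal, fell by 0.25 ± 0.06 and the receptor chain IFNGR1 by 0.44 ± 0.14 (SE, adjusted p = 0.0101 and 0.0397, limma). CALR, encoding the loading chaperone calreticulin, rose in Delta47 by 0.41 ± 0.03 in KO2 and by 0.35 ± 0.03 in KO1 (SE, adjusted p = 5.96e-09 and 3.73e-08, limma).

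Of 4 tested stress ligands that share the class I fold, 3 fell in OPM2 KO2 against WT, where 7.82% of all genes were lower. They were ULBP1 at −1.34 ± 0.21, MICA at −0.74 ± 0.14 and MICB at −0.42 ± 0.06 (SE, adjusted p = 0.000732, 0.0028 and 0.000279, limma), ligands of the NKG2D receptor of natural killer cells. Without the libraries that stand apart they were at −1.14, −0.67 and −0.38, all still called (limma). ULBP1 and MICA were low throughout. ULBP1 was at 0.47, 0.58 and 0.00 FPKM in KO2, against 2.30, 2.53 and 2.22 FPKM in WT. MICA was at 0.61, 0.58 and 0.38 FPKM in KO2, against 1.63, 1.42 and 1.58 FPKM in WT. In KO1EV against KO1, 2 of the 4 genes were called lower, where 3.17% of all genes were lower. ULBP1 was at 1.24, 1.03 and 0.18 FPKM in KO1EV, against 2.55, 2.85 and 3.31 FPKM in KO1. ULBP3, not among the 3 above, was at 0.56, 0.67 and 0.49 FPKM, against 1.18, 1.49 and 1.24 FPKM. MICA overlapped between these groups. MICB did not fall, at 24.35, 23.23 and 22.81 FPKM in KO1EV, against 21.82, 22.85 and 23.18 FPKM in KO1. Of the 3 genes that fell in KO2, only ULBP1 was thus clearly lower there too. The MHC class II gene HLA-DRA, whose promoter holds the same kind of SXY module, rose in OPM2 by 1.27 ± 0.07 in KO2 and by 0.55 ± 0.07 in KO1 (SE, adjusted p = 1.14e-07 and 0.000196, limma). The class I heavy chains were not called there with all libraries, but some were without those that stand apart. HLA-DRA was about as high with the empty vector, at 14.67, 16.03 and 15.24 FPKM in KO1EV, as in KO2, at 16.05, 15.34 and 13.04 FPKM. In Delta47 the 1 class II gene tested was called lower, at −1.47 in KO1 and −1.07 in KO2 (limma).

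Likeness of pattern was measured as the root mean square difference of the log2 group differences from WT, over 7 group differences in both lines and 502 candidate genes. Candidates were genes outside the set whose largest difference was at least 0.5 in size in each line. HLA-B (at most 0.15 in OPM2), NLRC5 (at most 0.38 there) and the members' median would not pass. A gene flat in either line could not be named, whereas members were exempt, so the ranking holds only among the genes compared. Of the candidates and the other members, HLA-C was closest to HLA-B, at 0.0932. The closest candidates were CORO1A, an actin-binding protein of leukocytes, at 0.261, ACSM3 at 0.323, NRTN at 0.327 and MEF2B at 0.364. Among the other members, TAP1 at 0.989 and TAPBP at 0.93 were farthest from HLA-B. The candidates closest to NLRC5 were POLR1B at 0.219, DUSP7 at 0.236, NUP153 at 0.242 and IQSEC1 at 0.25. The candidates closest to the members' median were ATP5MG at 0.256, LTBP4 at 0.27, ACOT7 at 0.286 and MRPL41 at 0.293. The group differences of one line share their WT libraries.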

How the data were processed

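Poly-A RNA of 30 libraries was sequenced as paired reads of 100 bases, per the labels' protocols, and 27 libraries were used. The submitters' processing notes name build hg19. No aligner or counting tool is given in the sources used here. The authors deposited FPKM for OPM2, per the file header. The Delta47 values were deposited with no unit and were treated as a linear signal. In Delta47, 3 columns whose names matched no single sample were not used, so the empty-vector group was not analysed here. Symbols turned into dates (23 in OPM2, 24 in Delta47) were replaced by gene IDs. Column totals ran from 510775.83 to 566016.07 in OPM2 and from 534184.63 to 633777.93 in Delta47.

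Values were taken as log2(value + 1) and fold changes are on that scale, which shrinks those of low genes. Genes that reached 1 in fewer than 3 libraries of a line were left out. For each line, 1 limma-trend model (limma 3.58.1, R 4.3.3) over all mapped groups gave two-sided moderated tests with Benjamini-Hochberg adjustment over all genes tested, and calls at an adjusted p below 0.05. The tables were normalized separately, so no test runs across lines. Alternatives were pseudocounts of 0.1 and 5, other filters, column total and quantile scaling, a replicate block, fits of only the groups compared, leaving out each library, leaving out both OPM2 libraries that stand apart and, chosen after the data were seen, removal of the trend with transcript length. The fit was tested on simulated data. The labels do not say whether replicates are separate cultures, so p-values measure the spread between these libraries, which may be technical. The 9 genes and all lists were chosen with earlier results of these data known. Named genes are the 9, FOXM1 and up to 4 genes of a list by smallest adjusted p in a comparison. The 4 closest candidates by likeness are named too. EPCAM, KRT8, KRT18, CDH1, PECAM1 and FCRL5 are named as markers, and PSMB9, PSMB10, PSME2, PSME3 and RFXANK to describe their lists.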

Additional observations from a re-analysis of the deposited data

Results flagged for a closer look

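In OPM2 the pair of knockout clones, set against each other, differed in 3 of the genes by the test of the difference itself. The log2 difference of KO2 from KO1 was −0.30 for TAP1, −0.64 for TAP2 and −0.31 for HLA-F. In Delta47 the clones differed in 7 genes. There the log2 difference of KO2 from KO1 was −0.49 for TAP1, 0.37 for NLRC5, 0.26 for HLA-C, 0.30 for HLA-B, −0.33 for TAPBP, −0.55 for HLA-E and −0.38 for B2M. For HLA-B, HLA-C and TAP1 in Delta47 both clones moved the same way from WT and differed in size, whereas B2M and HLA-E lay on opposite sides of WT. TAPBP moved in opposite directions in the lines when cells with the FOXM1c vector were set against the untransduced clone. The log2 difference was 0.0454 in OPM2 and −0.223 in Delta47, with each library of the vector group on that side of the mean of its clone. That difference between the lines was not tested, and the OPM2 value is small beside its SE of 0.24.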

How the results depend on the processing

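In OPM2, 3 of 9 called results of single genes kept their call in every alternative run (TAP2 in KO2 against KO1, B2M and HLA-C in KO1R against WT; the comparison of KO1R with KO1, chosen later, is not in this tally), and 35 of 153 alternatives lost a call. In Delta47 it was 26 of 28 results, and 2 of 447 alternatives lost a call, B2M in KO2 against WT under quantile scaling (−0.06) and NLRC5 in KO2 against KO1 with the length trend removed (0.23). None of these 37 results reversed. Leaving out the 2 OPM2 libraries that stand apart gave 4 called genes in KO1 against WT, 4 in KO2 against WT, 6 in KO2 against KO1, 5 in KO1EV against KO1, 1 in KO1R against KO1EV, 7 in KO1R against WT and 6 in KO1R against KO1, where the counts were 2, 1, 3, 1, 0, 2 and 2. Calls among the 47 other pathway genes rose in each of these comparisons as well, and the share of all genes is not given for that fit. With the length trend removed the counts were 1 in KO1 against WT, 1 in KO2 against KO1 and 0 in KO1EV against KO1. In fits of only the groups compared they were 0 in KO2 against WT, 1 in KO2 against KO1, 6 in KO1R against WT and 5 in KO1R against KO1. Column total scaling gave 0 in KO1EV against KO1 and 7 in Delta47 KO2R against KO2 (2 higher and 5 lower, where it was 2 and 2), and quantile scaling 1 in KO1R against KO1. Leaving out 1 library in turn gave 0 to 2 in KO1 against WT, 0 to 2 in KO2 against WT (0 without WT replicate 3, 2 without KO2 replicate 3), 1 to 4 in KO2 against KO1 and 0 to 2 in KO1EV against KO1 (2 without KO1EV replicate 3). Results that were not called and changed sign were TAPBP in KO1EV against KO1 (−0.248 to 0.048 over libraries left out, 0.048 without both) and in KO1R against KO1EV (−0.00263 to 0.293, −0.00263 without both), each without KO1EV replicate 3. So were, in Delta47, HLA-C in KO2R against KO2 with column totals (−0.151) or length removed (−0.0801) and NLRC5 there with length removed (0.128). HLA-E in KO2R against WT was at −0.156 with column totals, −0.00434 with length removed and −0.00478 to 0.0518 over libraries left out. Column totals move the median of all genes by −0.17 in KO2R against KO2 and by −0.16 in KO2R against WT. The cause of these changes was not tested. The length correction with lengths from the deposited files was not run, since these give none.

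Whether the replicate numbers pair the samples is not settled. Deviations of same-numbered libraries correlated between −0.20 and 0.75 in OPM2 (mean 0.11) and between −0.22 and 0.20 in Delta47 (mean 0.02). Those of libraries with different numbers correlated between −0.74 and 0.62 in OPM2 (mean −0.05) and between −0.28 and 0.29 in Delta47 (mean −0.01). Both OPM2 libraries that stand apart are replicate 3. With the replicate block, 1 gene was called in OPM2 KO1R against KO1EV where none was without it, and 6 in Delta47 KO1 against WT where 5 were; the other counts stayed the same.

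The 3 libraries a group, unknown depth, single clones and the low values of NLRC5 and HLA-F in Delta47 set the limits of detection.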
